A study of Drosophila melanogaster with 6 samples.

Results

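Transcripts of 9 genes of the insulin and PI3 kinase pathway were examined in eye-antennal imaginal discs of Drosophila melanogaster, the larval epithelia from which the adult eye, antenna and head cuticle form. The genes were InR, chico, Pi3K92E, Akt, Pdk1, foxo, Thor, S6k and ImpL2, and every probe set that the array's annotation assigned to exactly 1 of them was taken. This gave 8 probe sets of 7 genes, out of 13966 probe sets without controls that stood for 10844 genes. Pdk1 had 2 probe sets, the other 6 genes had 1 each, and Pi3K92E and Thor had none under this rule. Both genotypes carried the eye driver GMR Gal4, which acts in cells behind the morphogenetic furrow, the front of photoreceptor differentiation that sweeps across the eye field. In the first, GMR Gal4/UAS RasV12, it drove RasV12, a Ras GTPase locked in its active state, and in the second, GMR Gal4/+; UAS sSpi/+, it drove a secreted form of Spitz, the ligand of the EGF receptor that signals through Ras. There were 3 arrays per genotype, named biological replicates in the titles, each from 100 discs of larvae in the wandering stage of the 3rd instar raised at 25 °C. No discs without a transgene were analysed here, and cells ahead of the furrow and in the antennal part, which the driver does not reach, were in every sample. The sample description of the sSpi arrays names RasV12, whereas their titles and genotypes name sSpi, so the titles were followed.

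In flies, insulin-like peptides bind the receptor InR, which engages the adaptor chico and the PI3 kinase Pi3K92E. The lipid made by PI3 kinase brings the kinases Pdk1 and Akt to the membrane, where Pdk1 activates Akt. Akt then keeps the transcription factor foxo out of the nucleus and, through the TOR kinase, favours growth by S6k and by release of translation from the inhibitor Thor. In imaginal discs the pathway sets the size and number of cells, and Ras can bind Pi3K92E directly. Most of this control runs through lipids and phosphorylation, which an RNA array does not measure.

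Values are MAS5 signals, the linear brightness that Affymetrix software summarises for each probe set, which the authors had scaled to a common trimmed mean on every array. The median signal of the 6 arrays lay between 39.4 and 41.4. Differences were fitted on log2(signal + 16) with limma across the 8380 probe sets with the highest mean signal, the upper 60%, and called at a Benjamini-Hochberg adjusted p under 0.05. Adding 16 understates the fold change of dim genes. All 7 eye disc markers listed, among them so, eya and elav, and all 4 antennal markers measured, among them Dll and ss, lay above the signal filter. Their summed signals were 2398 to 2695 in RasV12 and 2219 to 2724 in sSpi for the eye, and 1013 to 1118 and 877 to 1043 for the antenna. Of the eye markers, 2 differed between genotypes: the proneural gene ato was 461 ± 37.7 in RasV12 against 208 ± 21.8 (adjusted p = 0.0012), and the Pax gene ey 277 ± 10.5 against 394 ± 39.2 (SD, n = 3, adjusted p = 0.048), a call that ended in 12 of 16 other settings. RasV12 replicate 1 stood apart, and without it 369 probe sets were called in place of 219. On it, 7 of 10 genes of the ecdysone response, a sign of larval stage, had their lowest RasV12 signal. The hemocyte genes Nplp2 and eater were highest on it, at 357 and 69.7, with at most 138 and 44.3 on the other arrays. Hml and Ppn, of the same list, were also highest on it, at 131 and 290, with at most 116 and 287 on the other arrays. Pxn and NimC1, also hemocyte genes, were highest on other arrays. Markers of other tissues differed between arrays. Summed signals of 6 salivary gland markers ranged from 154 to 230 in RasV12 and from 121 to 853 in sSpi. Of these, the glue protein gene Sgs7 reached 265 on sSpi replicate 2 against 35.1 or less on the other 5 arrays. Those of 4 fat body markers ranged from 79.2 to 106 in RasV12 and from 87.1 to 254 in sSpi, and of these the storage protein gene Lsp2 reached 137 on sSpi replicate 1, with the other arrays between 51.0 and 61.7. Summed signals of 5 glial markers were 935 to 1047 in RasV12 and 1407 to 1518 in sSpi, a gap that lay mostly in Gli, a septate junction gene that epithelia also express, at 738 ± 43.0 and 1189 ± 39.8 (SD, n = 3). The glial genes did not move one way: moody, at 57.4 against 93.2, lay lower in RasV12 and nrv2, at 99.3 against 62.9, higher, both without overlap and not called, while the glial factor gene repo overlapped. Summed hemocyte, muscle and tracheal markers overlapped between genotypes. The hemocyte list held 1 called gene, Ppn, with 278 ± 17.8 in RasV12 against 181 ± 30.5 in sSpi (adjusted p = 0.0498). This call ended in 12 of 16 other settings. NimC1 went the other way without overlap, with 3.04 to 6.54 on the RasV12 arrays against 17.3 to 25.2 on the sSpi arrays. It lay below the signal filter and was not tested. Hml overlapped at a log2 difference of -0.27, and eater, Pxn and Nplp2 overlapped at 0.16, 0.37 and 0.32. The hemocyte genes thus did not move one way either.

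Of the 8 probe sets of the pathway, 1 was called, a Pdk1 probe set higher in RasV12, and none was lower (limma, adjusted p under 0.05, n = 3 per genotype). Over all 8380 probe sets tested, 2.61% were called, 1.30% as higher in RasV12 and 1.31% as lower. A single call among 8 is therefore a statement about 1 probe set of Pdk1 and not about the group. At an unadjusted p under 0.05, 2 of the 8 passed, the same Pdk1 probe set and that of chico, against 15.2% of all probe sets. The median log2 difference of the 8 was 0.12 and the median of its absolute value 0.14, beside -0.01 and 0.14 over all probe sets tested. All 8 passed the signal filter.

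**Figure D1:**
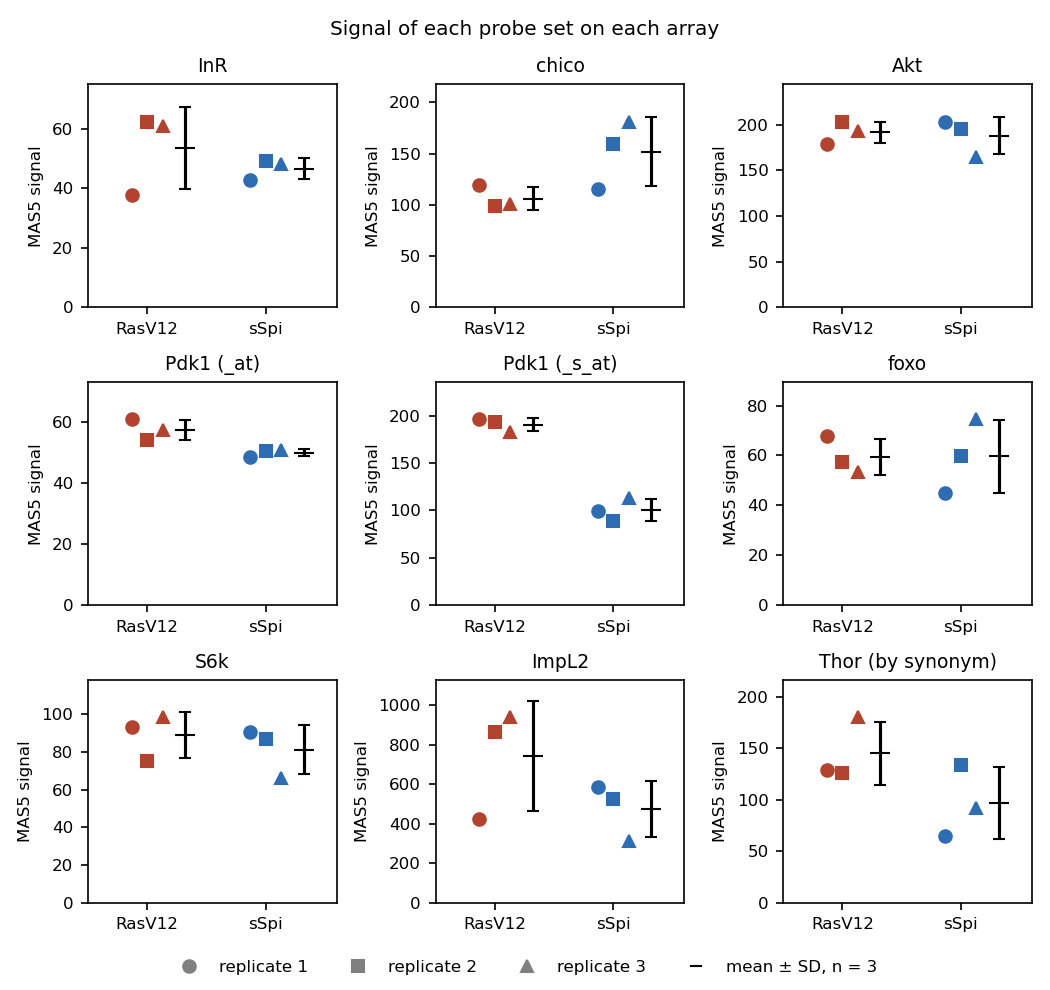
MAS5 signal (y axis, linear from 0) of each probe set on the 3 RasV12 and 3 sSpi arrays; symbols mark the replicate number and black bars the mean ± SD of 3 arrays. The Pdk1 probe set with the suffix _s_at is at 183 to 196 in RasV12 and 88.8 to 113 in sSpi, while the panels of InR, chico, Akt, foxo, S6k, ImpL2 and Thor overlap between genotypes.

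ImpL2 encodes a secreted protein of the immunoglobulin family that binds insulin-like peptides and restrains signalling, and its transcript was first found as one induced by ecdysone. Its signal was 424, 866 and 940 on RasV12 replicates 1, 2 and 3 and 589, 524 and 316 on sSpi replicates 1, 2 and 3. The RasV12 arrays split, with replicate 1 among the sSpi values and the other two above them all. The mean was 743 ± 279 over RasV12 arrays and 476 ± 143 over sSpi arrays (SD, n = 3). The difference on the log2 scale, 0.59 ± 0.30 (SE), was not called (limma adjusted p = 0.40, 95% interval -0.08 to 1.27). Its standard error was the largest of the 8 probe sets, against a median of 0.14 over all probe sets tested. Without RasV12 replicate 1 the difference was 0.95, still not called (adjusted p = 0.051), and over all 16 other settings the adjusted p lay between 0.051 and 0.68.

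The array-to-array course of ImpL2 ran beside the mean of the ecdysone response genes, though not beside each of them. As deviations from the mean of the 6 arrays in log2(signal + 16), ImpL2 was at -0.41, 0.59 and 0.71 on the RasV12 arrays and at 0.05, -0.12 and -0.82 on the sSpi arrays. The mean deviation of 10 ecdysone response genes was -0.39, 0.60 and 0.71 on the RasV12 arrays and -0.07, -0.14 and -0.71 on the sSpi arrays. On each of the 6 arrays ImpL2 lay within 0.12 of that mean, and RasV12 replicate 1 and sSpi replicate 3 were the lowest of their genotypes in both. Among the 10 genes, ImpE2, an ecdysone-induced secreted protein gene, had signals of 2472, 4522 and 5412 in RasV12 and 2925, 2972 and 1375 in sSpi. Hr4, a nuclear receptor gene of the ecdysone cascade, had 30.2, 102 and 141 in RasV12 and 43.4, 45.4 and 18.7 in sSpi. MsrA, Cth and ftz-f1 departed from this course. MsrA, with 98.3, 72.6 and 76.5 in RasV12, and Cth, with 327, 301 and 291, were highest on RasV12 replicate 1. The signals of ftz-f1 were 31.7, 42.05 and 19.6 in RasV12 and 25.9, 27.6 and 41.6 in sSpi. In limma, 0 of the 10 were called and 5 passed an unadjusted 0.05, and 9 of the 10 differences were above 0, where 15.2% of all probe sets passed an unadjusted 0.05 and 48.6% lay above 0. The part of larval stage in the ImpL2 difference was not tested.

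**Figure D2:**
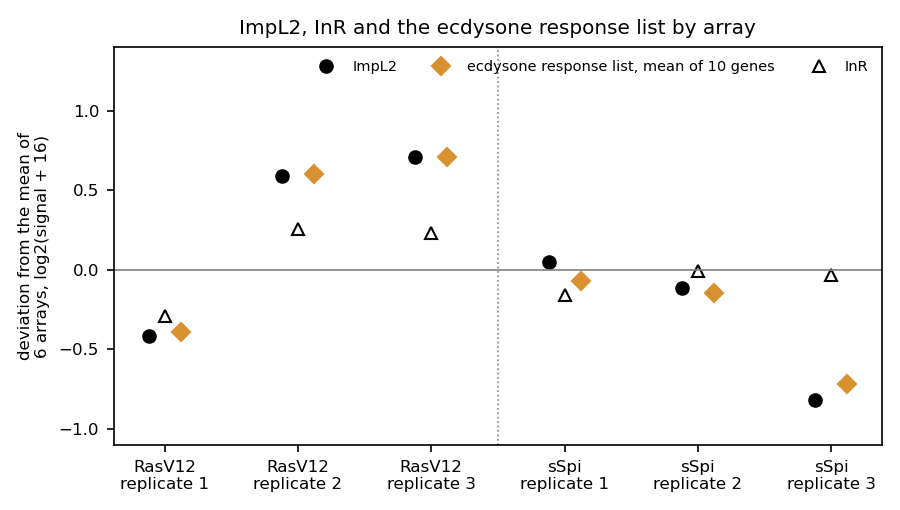
Deviation from the mean of 6 arrays in log2(signal + 16) (y axis) on each array (x axis), for ImpL2 (circles), the mean of 10 ecdysone response genes (diamonds) and InR (triangles). ImpL2 and the ecdysone mean lie within 0.12 of each other on every array, from about -0.82 and -0.71 on sSpi replicate 3 to 0.71 for both on RasV12 replicate 3.

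InR, the insulin receptor, had signals of 37.7, 62.5 and 60.9 in RasV12 and 42.7, 49.3 and 48.1 in sSpi. As for ImpL2, replicate 1 was the lowest RasV12 array, here the lowest of all 6, while the other two RasV12 arrays were the highest. RasV12 minus sSpi came to 0.13 ± 0.17 on the log2 scale (SE, n = 3), not called (limma adjusted p = 0.77, 95% interval -0.24 to 0.51). Without RasV12 replicate 1 it was 0.31 (adjusted p = 0.22). InR is itself a gene that foxo activates in fly cells when insulin signalling is low.

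The gene chico encodes the insulin receptor substrate, whose loss gives small flies. Its signal was 119, 98.7 and 101 in RasV12 and 115, 160 and 181 in sSpi. A pair of sSpi arrays was above every RasV12 array, and sSpi replicate 1 lay within the RasV12 range. The log2 difference of -0.44 ± 0.16 (SE, n = 3) was the only negative one of the 8 and was not called (limma adjusted p = 0.21, unadjusted p = 0.019, 95% interval -0.80 to -0.09). It stayed negative in 16 of 16 other settings, at adjusted p between 0.092 and 0.50, and its size with 1 array left out ran from -0.61 to -0.32.

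Pdk1 encodes the kinase that phosphorylates Akt and S6k in their activation loops. Probe set 142677_s_at gave 196, 193 and 183 in RasV12 and 99.3, 88.8 and 113 in sSpi. Every RasV12 array was above every sSpi array, with a wide gap. The means were 190 ± 7.04 and 100.3 ± 12.1 (SD, n = 3), a log2 difference of 0.83 ± 0.11 (SE) or 1.78-fold on the scale of signal + 16 (limma adjusted p = 0.0053, 95% interval 0.58 to 1.09). The call held in 16 of 16 other settings, at adjusted p between 0.0042 and 0.035, and with 1 array left out the difference ran from 0.76 to 0.91. An exact two-sided permutation test of the 3 against 3 arrays gave p = 0.1, the smallest that this design allows. The markers Gli, ato, ey and Ppn differed between the same groups of arrays, and the part of cell makeup in the Pdk1 difference was not tested.

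The other Pdk1 probe set, 141986_at, moved far less. Its signal was 60.8, 54.0 and 57.2 in RasV12 and 48.5, 50.6 and 50.7 in sSpi. These groups did not overlap either, which held for 21.3% of all probe sets tested, but the gap between them was small. At 0.15 ± 0.12 on the log2 scale (SE, n = 3), it was not called (limma adjusted p = 0.60, 95% interval -0.11 to 0.42). The log2 ratio of the brighter to the dimmer Pdk1 probe set within an array was 0.68 higher in RasV12, without overlap between genotypes (exact two-sided permutation p = 0.1, the smallest possible). These values describe the 6 arrays only. A test that cannot go below 0.1 cannot decide whether the probe sets of Pdk1 moved alike. The ratio was also looked at because 1 of them was called. The suffix _s_at is the array maker's mark for probes that may match more than 1 transcript. Of 116 such probe sets tested, 5 were called, or 4.31%. Of 550 genes with 2 or more tested probe sets, 43 had a called one. In 36 of these 43, some probe sets were called and some were not. These counts compare calls and not the size of the differences. The positions of the probes within Pdk1 were not analysed here. Of the protein-coding genes directly before and after Pdk1 on the chromosome, the one before, CG12483, was below the signal filter. The one after, CG6845, had signals of 102, 63.6 and 38.0 in RasV12 and 45.7, 45.2 and 88.1 in sSpi. These values overlapped (log2 difference 0.12 ± 0.29, SE, limma adjusted p = 0.89, n = 3).

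The genes most like the called Pdk1 probe set were looked up by the root mean squared distance between 6 centred log2 values, over 6767 other genes. The 4 nearest were bib, CG9737, Pde8 and sls, at distances from 0.106 to 0.108, where the median over all candidates was 0.456. The channel-like gene bib, known from neurogenesis, had 233, 261 and 240 in RasV12 and 143, 100.3 and 148 in sSpi. Pde8, a cyclic nucleotide phosphodiesterase gene, had 62.9, 80.5 and 62.5 in RasV12 and 28.3, 27.5 and 40.4 in sSpi. The titin-like gene sls, known from muscle, had 89.0, 82.1 and 89.7 against 35.2, 41.8 and 51.2, and CG9737 had 86.3, 88.1 and 69.4 against 45.7, 40.1 and 46.2. All 4 were themselves called, as likeness to a called gene makes likely. No count or test is drawn from this choice.

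Akt encodes the central kinase of the pathway. Its signal was 180, 203 and 193 in RasV12 and 204, 196 and 165 in sSpi. The 2 sets of values interleaved. The log2 difference was 0.03 ± 0.11 (SE, n = 3), not called (limma adjusted p = 0.93), and its 95% interval of -0.22 to 0.28 lies below the whole interval of the called Pdk1 probe set. S6k, the TOR-dependent kinase of ribosomal protein S6, had 93.4, 75.4 and 98.5 in RasV12 and 90.6, 86.8 and 66.4 in sSpi. These values also interleaved, with a log2 difference of 0.11 ± 0.14 (adjusted p = 0.77, 95% interval -0.21 to 0.44).

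The foxo gene encodes the transcription factor that Akt restrains. Its signal was 67.6, 57.2 and 53.2 in RasV12 and 45.1, 59.6 and 74.4 in sSpi. The sSpi arrays held both the lowest and the highest value, with the RasV12 arrays between them. Genotypes differed by 0.01 ± 0.16 on the log2 scale (SE, n = 3, limma adjusted p = 0.99, 95% interval -0.36 to 0.37). Its sign turned with the arrays left out, from -0.14 without sSpi replicate 1 to 0.14 without sSpi replicate 3.

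Thor encodes the 4E-BP translation inhibitor and is a classic gene activated by foxo. The array annotation assigns no gene to probe set 153432_at, but the gene table lists this probe set ID among the synonyms of Thor. Such IDs occurred 133 times in the table, and the 111 of them to which the array annotation gives 1 gene were all assigned to the same gene there. The signal of this probe set was 129, 126 and 180 in RasV12 and 64.8, 134 and 92.3 in sSpi. A single sSpi array, replicate 2, reached into the RasV12 range, and the other two lay below it. The log2 difference was 0.54 ± 0.22 (SE, n = 3), not called (limma adjusted p = 0.27, unadjusted p = 0.033, 95% interval 0.05 to 1.03). It was positive in 16 of 16 other settings, at adjusted p between 0.098 and 0.56. Without sSpi replicate 1, the array with the high Lsp2 signal, it was 0.32, and without sSpi replicate 2, the array with the high Sgs7 signal, it was 0.77. The part of other tissues in it was not tested.

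**Figure D3:**
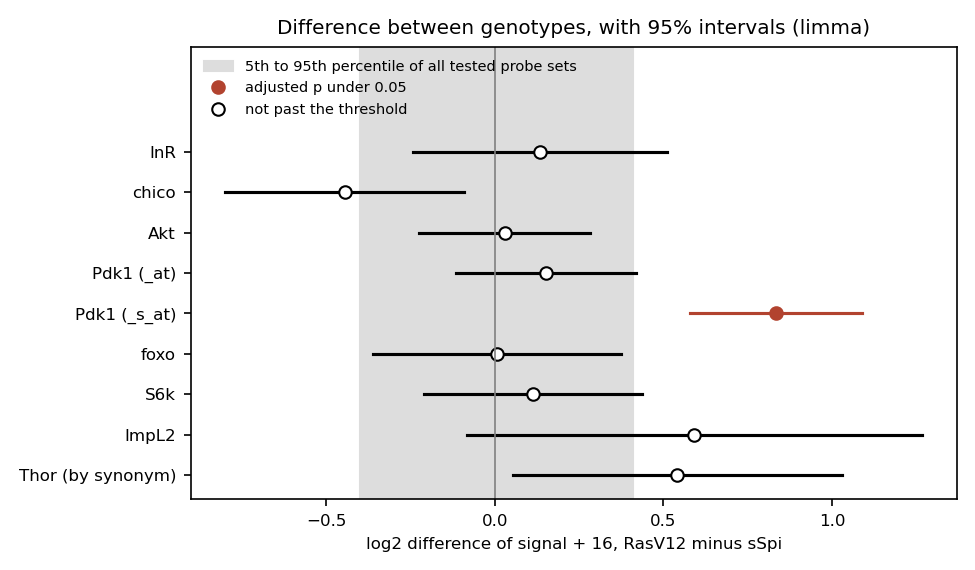
Log2 difference of signal + 16, RasV12 minus sSpi (x axis), for each probe set with its 95% interval from limma (lines); the filled red point is past an adjusted p of 0.05 and the grey band spans the 5th to 95th percentile of all 8380 probe sets. The Pdk1 _s_at point lies at 0.83 with an interval of 0.58 to 1.09, and the intervals of InR, Akt, the other Pdk1 probe set, foxo, S6k and ImpL2 include 0.

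Around these members, 61 further genes of insulin, PI3 kinase and TOR signalling were listed in 6 groups by role, of which 39 had a probe set of their own and 32 passed the signal filter. A gene was represented by its brightest probe set. Of the 32, 1 was lower in RasV12 and none was higher (limma, adjusted p under 0.05, n = 3), where 1.39% and 1.23% of 6768 genes were. At an unadjusted p under 0.05, 6 of the 32, or 18.8%, passed, beside 15.2% of all probe sets, and in 9 of the 32, or 28.1%, the genotypes did not overlap, beside 21.3%. The median log2 difference of the 32 was -0.06, with 14 above 0, beside -0.01 and 48.6% above 0 over all probe sets.

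**Figure D4:**
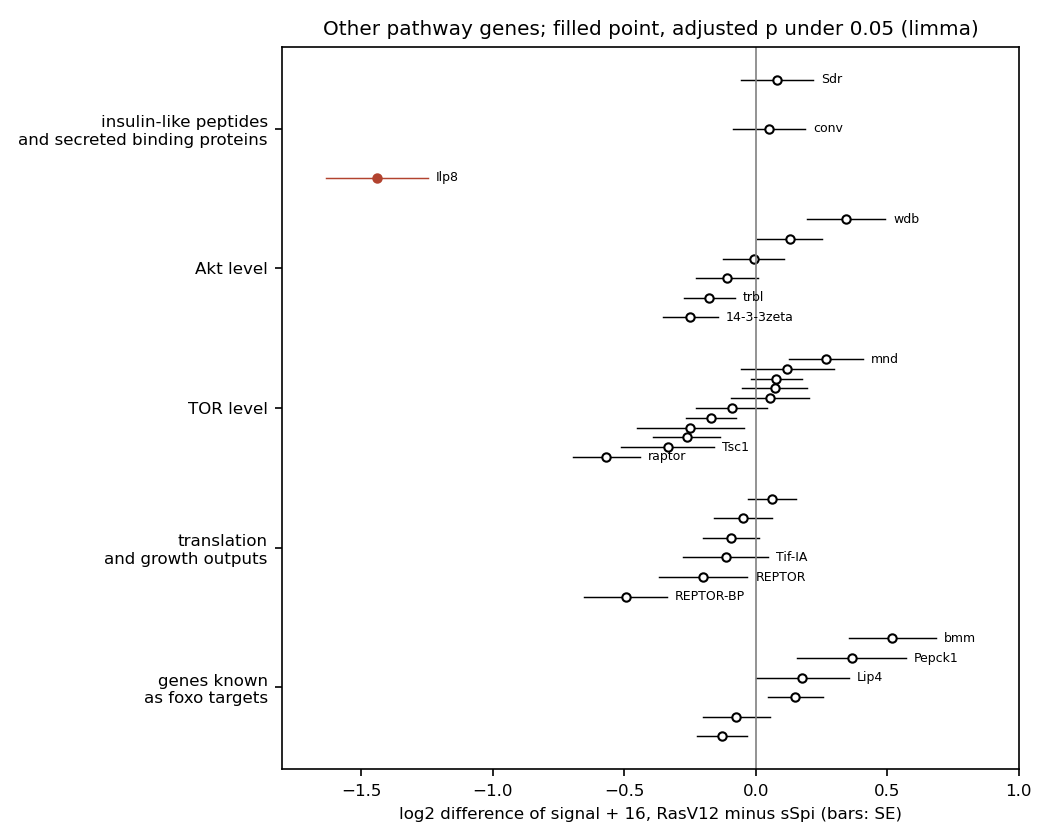
Log2 difference of signal + 16, RasV12 minus sSpi (x axis), with SE bars. Points are the 32 further pathway genes that passed the signal filter, grouped by role (y axis). Named are the 3 genes of each group with the largest absolute difference, the called gene among them. Ilp8, filled, is at -1.44, and the others lie between -0.57 and 0.52.

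Among ligands and secreted binding proteins, 1 of 3 tested fell, Ilp8, a relaxin-like peptide of the insulin family released by discs with disturbed growth, which acts through another receptor, Lgr3. Its signal was 31.7, 61.3 and 31.8 in RasV12 and 140, 151 and 119 in sSpi, with no overlap. The log2 difference was -1.44 ± 0.19 (SE, limma adjusted p = 0.0051, n = 3). Sdr, a secreted decoy of the insulin receptor, and conv, the fly relative of the acid-labile subunit, did not pass, at 0.08 ± 0.14 and 0.05 ± 0.14. The brain and neuronal peptides Ilp2 and Ilp7 were below the signal filter, at signals of 3.31 to 5.43 and 2.29 to 3.01. None of the 7 listed genes beside the receptor, among them Lnk and Pi3K21B, had a probe set of its own.

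At the level of Akt, none of 6 genes passed in limma. An unadjusted p under 0.05 was seen for 2, beside 15.2% of all probe sets. The phosphatase subunit gene wdb was at 63.4, 76.9 and 65.2 in RasV12 and 45.4, 43.9 and 63.8 in sSpi, a log2 difference of 0.34 ± 0.15 (SE, adjusted p = 0.31, n = 3). Only sSpi replicate 3 reached into the RasV12 range of wdb. 14-3-3zeta, a member of the protein family that holds phosphorylated foxo in the cytoplasm, was at 2225, 1866 and 2000 against 2271, 2642 and 2336, a difference of -0.25 ± 0.10 without overlap (adjusted p = 0.29). The pseudokinase gene trbl, an inhibitor of Akt, was at -0.18 ± 0.10 (adjusted p = 0.44), also without overlap. Groups without overlap occurred in 21.3% of all probe sets tested.

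At the level of TOR, none of 11 genes passed in limma, and the differences lay between -0.57 and 0.27. An unadjusted p under 0.05 was seen for 1, beside 15.2% of all probe sets. The one nearest to a call was raptor, the substrate-binding subunit of TOR complex 1, with signals of 37.7, 34.2 and 37.4 in RasV12 and 63.1, 55.5 and 67.0 in sSpi. Every sSpi array was above every RasV12 array. The log2 difference was -0.57 ± 0.13 (SE, n = 3) with a limma adjusted p of 0.051. It was past the threshold in 3 of 15 other settings, with quantile normalization, without the trend or without RasV12 replicate 1, and its adjusted p ranged from 0.036 to 0.18. Tsc1, an inhibitor of TOR signalling, was at -0.33 ± 0.18 (adjusted p = 0.42), and mnd, an amino acid transporter gene, at 0.27 ± 0.14 (adjusted p = 0.42). The kinase gene itself, mTor, was at 0.07 ± 0.12.

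Of 6 genes of translation and growth output, none passed in limma. For 1, the unadjusted p was under 0.05, as for 15.2% of all probe sets. REPTOR-BP, the partner of a transcription factor that TOR restrains, was at 229, 153 and 144 in RasV12 and 237, 249 and 261 in sSpi. Its groups did not overlap, although RasV12 replicate 1 came close to the sSpi arrays. The log2 difference was -0.50 ± 0.16 (SE, adjusted p = 0.16, n = 3), and it passed without RasV12 replicate 1, at -0.69 and an adjusted p of 0.0084. REPTOR itself was at -0.20 ± 0.17 (adjusted p = 0.63), and Tif-IA, a factor for ribosomal RNA synthesis, at -0.11 ± 0.16 (adjusted p = 0.79).

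Of 6 genes known as targets of foxo, other than InR and Thor, none passed in limma, and the median difference was 0.16. The unadjusted p was under 0.05 for 1, beside 15.2% of all probe sets. The lipase gene bmm had signals of 52.5, 36.9 and 48.6 in RasV12 and 32.7, 27.9 and 21.2 in sSpi. Its groups did not overlap, at a log2 difference of 0.52 ± 0.17 (SE, adjusted p = 0.16, n = 3). Pepck1, an enzyme of gluconeogenesis, was at 0.37 ± 0.21 (adjusted p = 0.45), and the lipase gene Lip4 at 0.18 ± 0.18 (adjusted p = 0.69). For every gene named here, fewer cells that carry a transcript and less of it in each cell cannot be told apart in pooled discs.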

How the data were processed

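Each of the 6 arrays was hybridised with biotin-labelled cRNA from 5 ug of total RNA, per the labels' protocols. The deposited values are linear intensities, with 1 signal for each probe set and array, made by the authors with MAS5 per the submitters' processing notes. The version of MAS5 and a genome build are not given in the sources used here. The trimmed mean, with 2% removed at each end, was 100.01 on every array.

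Control probe sets (44) were set aside. Symbols came from the platform annotation and were updated through gene identifiers with the table of assembly Release 6 plus ISO1 MT: 12443 probe sets had 1 symbol, 327 several and 1196 none. The upper 60% by mean signal, 8380 probe sets above 23.4, were fitted as log2(signal + 16) with lmFit and trended eBayes (limma 3.58.1, R 4.3.3). Tests were two-sided and p-values were adjusted over all 8380 (Benjamini-Hochberg). The fit was tested on simulated data. Exact permutation tests ran over 3 against 3 arrays. Named genes are every probe set of the members, each listed gene past the threshold, the 3 largest differences of each list and the 4 patterns nearest to a called member. The members and lists were chosen with earlier results of these data known. Tor and Eip71CD were read as mTor and MsrA, their symbols in the gene table. The Thor probe set, CG6845, the cell type markers named, mTor, the ecdysone genes and the PI3 kinases of other classes were added after values were seen.

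Replicate numbers 1 to 3 occur in the titles of both genotypes. Alternatives were pseudocounts of 1 and 64, no filter, the upper 40%, quantile and median scaling, no trend, the replicate block, 1 probe set per gene, each array left out, and RasV12 replicate 1 and sSpi replicate 2 left out together. The number of arrays limits the precision. Figures were drawn with matplotlib 3.10.9.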

Additional observations from a re-analysis of the deposited data

How the results depend on the processing

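The call of Pdk1 142677_s_at and the count of 1 called member probe set held in all 16 other settings. Not all 8 were tested in each setting. The upper 40% left out InR, foxo and Pdk1 141986_at, and 1 probe set per gene left out Pdk1 141986_at. No setting called a further pathway gene as higher in RasV12. The count over all probe sets was 219, fell to 138 with no filter on low signal, and ran from 86 (without sSpi replicate 2) to 369 (without RasV12 replicate 1) with 1 array left out; it was 106, 98 and 134 without RasV12 replicate 2, sSpi replicate 1 and sSpi replicate 3. The count of further pathway genes lower in RasV12 was 1, rose to 2 with quantile normalization, without the trend and without RasV12 replicate 1 and sSpi replicate 2 together, and ran from 1 to 3 with 1 array left out, 3 without RasV12 replicate 1; raptor or REPTOR-BP, or both, were the genes added. With 1 array left out, the Akt difference ran from -0.054 to 0.084, that of foxo from -0.14 to 0.14 and that of S6k from -0.0013 to 0.21, none of them called. Without RasV12 replicate 1 and sSpi replicate 2 together, foxo was at -0.062, Sdr at -0.034 and CG6845 at -0.29. With 1 array left out, conv ran from -0.047 to 0.14, Tif-IA from -0.30 to 0.017 and CG6845 from -0.16 to 0.40. These sign changes are of differences that were never called, and the cause was not tested.

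Same-numbered arrays of the genotypes deviated with correlations of -0.11, -0.04 and -0.14, and were therefore not treated as pairs. With the replicate block, 159 probe sets passed and Pdk1 142677_s_at kept its call (difference 0.83, adjusted p = 0.018). Of the genes most like it, CG9737 and Pde8 each missed the threshold in 7 other settings, the replicate block among them (adjusted p = 0.058 and 0.051), sls in 4 and bib in 1. Their differences stayed of similar size with 1 array left out, at 0.64 to 0.78 for CG9737, 0.72 to 0.94 for Pde8, 0.72 to 0.92 for sls and 0.69 to 0.94 for bib.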

Other observations

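Neither Pi3K92E nor its adaptor subunit Pi3K21B had a probe set of its own, but the fly's other PI3 kinases did, and their values were looked up for that reason. Pi3K59F, the class III enzyme of endosomes and autophagy (Vps34), had signals of 61.6, 69.6 and 65.1 in RasV12 and 38.0, 46.4 and 41.9 in sSpi. Every RasV12 array was above every sSpi array, at a log2 difference of 0.49 ± 0.13 (SE, n = 3) that was not called (limma adjusted p = 0.086, range over 15 other settings 0.067 to 0.28). Pi3K68D, the class II enzyme, had 2 probe sets. 142750_at gave 82.2, 71.3 and 64.5 in RasV12 and 50.3, 31.7 and 37.3 in sSpi, a difference of 0.68 ± 0.16 without overlap (adjusted p = 0.059, range 0.052 to 0.22 over 14 other settings). 151675_s_at overlapped between genotypes, at 166, 166 and 144 against 136, 115 and 167, with a difference of 0.18 ± 0.14 (adjusted p = 0.60). In Pi3K68D, unlike Pdk1, the probe set with the suffix _s_at was the one with the smaller difference.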
